A study of Mus musculus with 4 samples.

Results

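Cathepsins are the peptidases of the lysosome, and cystatin C is a secreted inhibitor of the cysteine cathepsins. Expression of 10 genes of this system (Ctsa, Ctsb, Ctsc, Ctsd, Ctsh, Ctsk, Ctsl, Ctss, Ctsz and Cst3) was followed in mouse ATDC5 cells, a chondrogenic line, after knockdown of Chadl. Members were the probe sets that the platform annotation assigns to 1 of these symbols alone, 19 of the 45037 probe sets tested, and 5 of the 10 genes had more than 1. Each gene was read from its brightest probe set, as were all 17097 genes with a symbol of their own. The arrays comprised 2 of cells transfected with a duplex against Chadl and 2 of cells transfected with a universal scrambled duplex. The duplexes were 27-mers, called shRNA in the labels, given at 30 nM by lipofection. After 16 h the cells of both groups went into differentiation medium, and the samples are labelled as differentiated for 5 days. Only 1 Chadl sequence is reported as effective, so effects of lower Chadl and other effects of that sequence cannot be told apart. The labels call the samples biological replicates without naming separate cultures, so the spread between them may be technical.

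Cathepsins are made as inactive precursors, carried to the lysosome largely by mannose 6-phosphate receptors and activated there at acid pH. Most are cysteine peptidases of the papain family, whereas cathepsin D is an aspartic and cathepsin A a serine peptidase. In skeletal tissue they degrade matrix proteins taken up by the cell, and secreted cathepsins cleave collagen and proteoglycan outside it. Cystatin C blocks the papain-type enzymes outside the cell and does not inhibit cathepsins A and D.

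Values are log2 signals per probe set after RMA, in which array-wide differences in RNA amount have been removed, and the array medians lay between 4.24 and 4.25. Signals of different probe sets depend on their probes, so the genes are not ranked by level here. The targeted gene Chadl, a leucine-rich repeat protein gene of cartilage, read 4.29 and 4.64 in the knockdown arrays, against 4.91 and 4.84 in the control arrays (log2 difference -0.41, SE 0.12, adjusted p = 0.608 in limma). Chadl was read by 1 probe set, whose mean signal of 4.67 was below the median of all genes. It lay at -0.58 from the control mean in knockdown 1 and at -0.23 in knockdown 2. Knockdown 1 stood apart from the other arrays. Over all genes the SD of the log2 difference was 0.20 between knockdown 1 and each control, 0.13 between knockdown 2 and each control, and 0.10 between the controls. Of 14 chondrocyte markers, 6 reached the median signal of all genes (4.86), among them Sox9, Col2a1 and Col11a1, whereas Comp, Matn1 and Prg4 lay below it. Their summed linear signal was 1620 and 2023 in knockdown 1 and knockdown 2, against 1827 and 1882 in the controls. Such a sum weighs the brightest genes most, and these differed in direction. Col2a1 read 8.23 and 9.17 in knockdown 1 and knockdown 2, against 9.01 and 9.08 in the controls. Col11a1 read 9.72 and 9.82, against 9.60 and 9.64. Of the 14 means 9 were lower in knockdown and 5 higher (35.7%, against 52.7% of all genes). Below both controls lay 3 markers (21.4%, against 17.1% of all genes), and above both 1 (7.14%, against 21.2%). Unadjusted p in limma was under 0.05 for 3 lower and 1 higher, where 2.56% of all genes were lower and 4.4% higher. Over all probe sets 0 of these markers passed. The part of these markers in the results below was not tested.

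The transcript of cathepsin H lay higher in both knockdown arrays, by nearly the same amount in each. Most other members lay slightly higher, and the test over all probe sets passed none of them. With an adjusted p of 0.05 in limma, 0 of the 10 genes and 0 of the 19 probe sets passed, where 0.00222% of all probe sets and 0% of all genes did. At an unadjusted p of 0.05, Ctsh and Ctsl were higher and 0 members were lower, where 4.4% of all genes were higher and 2.56% lower. For 8 of the 10 genes both knockdown signals exceeded both control signals, compared with 21.2% of all genes, and for 0 both were lower, compared with 17.1%. All 10 means were higher in knockdown, as were 52.7% of all means. The 10 genes had a median difference of 0.07 (0.08 from knockdown 1 alone, 0.07 from knockdown 2 alone), beside 0.01 over all genes. Array values of a culture do not tell apart more RNA per cell from more cells of one kind. Of the 10 genes, 7 reached the median signal, and 6 of those 7 had both knockdown signals above both control signals, where 23.9% of all genes that bright did. The share of non-overlapping genes depends on the spread of the arrays, and the knockdown pair differed by 1.93 times the SD of the control pair. Of the 9 other probe sets, 1 of Ctsl lay above both controls and 1 of Ctsa below both, so that over all 19 the counts were 9 and 1, beside 18.6% and 19.9% of all probe sets. Of the 19 means 14 were higher (73.7%, against 49.3% of all probe sets) and 5 lower. Their median difference was 0.026, beside -0.0018 over all probe sets.

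**Figure D1:**
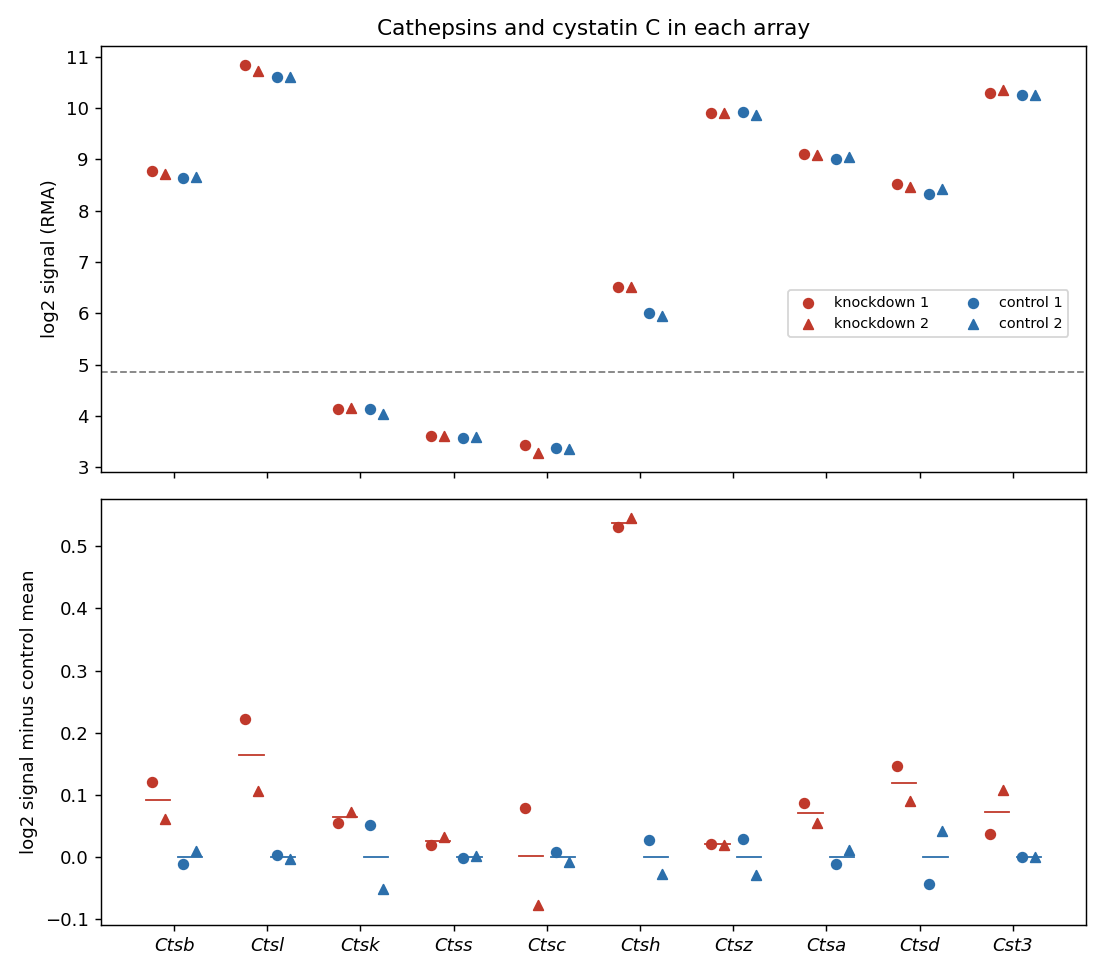
The upper panel gives the log2 signal of each gene's brightest probe set in the 4 arrays, with the median of all genes (4.86) as a dashed line, and the lower panel gives the same signals minus the mean of the 2 control arrays. Red marks knockdown, blue marks control, and short lines are group means. Ctsh stands 0.54 above control, while the means of the other 9 genes lie between 0.0013 and 0.16.

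Among the exopeptidase genes, Ctsh had the largest difference. Cathepsin H is an aminopeptidase that removes single residues from the N-terminus of its substrates. Ctsh read 6.505 and 6.520 in the knockdown arrays, against 6.002 and 5.947 in the control arrays. The groups did not overlap, and the gap between the groups was far wider than that within either pair. Knockdown minus control was 0.54 (SE 0.08, 95% confidence interval 0.35 to 0.73), or 1.45-fold with an interval of 1.27-fold to 1.66-fold. It did not pass the test over all probe sets (unadjusted p = 0.00025, adjusted p = 0.352, limma). By unadjusted p it was the 15th of 17097 genes and the 31st of 45037 probe sets. Knockdown 1 lay 0.53 and knockdown 2 lay 0.55 above the control mean. Both knockdown arrays were at least 0.5 above the control mean for 15 genes, 0.0877% of all, a limit chosen after the values of Ctsh were seen. The gene is read by 1 probe set, so no second probe set bears on it.

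Ctsz and Ctsc, whose products also trim substrates from their ends, differed little. Ctsz encodes a carboxypeptidase, and read 9.91 and 9.91 in knockdown, against 9.92 and 9.86 in control. Its groups overlapped, with a difference of 0.02 (SE 0.04, 95% confidence interval -0.08 to 0.12). Its 2 other probe sets differed by -0.0057 and 0.0022, and 1 of them is of a type that may cross-hybridize. Thus all 3 bright probe sets of Ctsz placed both groups at nearly the same signal. Ctsc encodes dipeptidyl peptidase 1, which activates the serine proteases of immune cell granules, and its signal lay at the 9.53th percentile of all genes. It read 3.44 and 3.28 in knockdown, against 3.37 and 3.35 in control, a difference of 0.0013 (95% confidence interval -0.19 to 0.19). The knockdown arrays lay on either side of the controls, and at this signal a change of the transcript could be compressed.

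Of the endopeptidases, Ctsl differed most. Cathepsin L is a broad lysosomal endopeptidase that also acts in secreted and nuclear forms. Ctsl read 10.83 and 10.72 in the knockdown arrays, against 10.62 and 10.61 in the control arrays. Both knockdown arrays were higher, with the larger step in knockdown 1. Knockdown minus control was 0.16 (SE 0.04, 95% confidence interval 0.06 to 0.27), or 1.12-fold (unadjusted p = 0.00681, adjusted p = 0.569, limma). Its second probe set was dim at 3.14 and 3.12 in knockdown, against 3.09 and 3.07 in control, and differed by 0.05 in the same direction.

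Ctsb, whose product is both an endopeptidase and a dipeptidyl carboxypeptidase, read 8.77 and 8.71 in knockdown, against 8.64 and 8.66 in control. The groups did not overlap, but the difference of 0.09 had an interval that included 0 (SE 0.06, 95% confidence interval -0.04 to 0.22). The 3 other Ctsb probe sets were dimmer and disagreed in sign. Differences were -0.03 for the probe set with a mean signal of 6.42, -0.15 for the one at 4.30 and 0.14 for the one at 3.83. In all 3 the groups overlapped.

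Ctsk and Ctss are the endopeptidase genes best known from other cells, osteoclasts and antigen-presenting cells, and are adjacent protein-coding genes on mouse chromosome 3. Cathepsin K is the main collagen-degrading enzyme of osteoclasts. Ctsk read 4.14 and 4.16 in knockdown, against 4.14 and 4.03 in control, below the median of all genes. Knockdown 1 lay only just above control 1, and the difference was 0.06 (95% confidence interval -0.13 to 0.26). It was 0.12 without control 1 and 0.01 without control 2. Cathepsin S cuts the invariant chain that occupies major histocompatibility complex class II molecules. Ctss read 3.60 and 3.61 in knockdown, against 3.58 and 3.58 in control, a difference of 0.03 (95% confidence interval -0.14 to 0.19). Both genes were dim, and the intervals of their differences included 0.

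Markers of the cells that make cathepsins K and S were dim too. Of 11 osteoclast markers measured, 2 were at or above the median signal, and these were Tcirg1 and Nfatc1, which many cells express. The tartrate-resistant phosphatase gene Acp5 read 3.80 and 3.82 in knockdown, against 3.81 and 3.91 in control. Of 17 macrophage markers 1 was at or above the median, Cd14, and the pan-leukocyte gene Ptprc read 3.45 and 3.23 in knockdown, against 3.30 and 3.32 in control. The summed linear signal was 441 and 472 in knockdown and 447 and 453 in control for the osteoclast list. For the macrophage list it was 257 and 275 in knockdown and 273 and 266 in control. Arrays give no zero, so dim probe sets do not set a limit on the number of such cells. In the class II list of 10 genes 4 lay above both controls (40% against 21.2% of all genes) and 1 below (10% against 17.1%). Unadjusted p was under 0.05 in limma for 2, both higher, where 4.4% of all genes were higher and 2.56% lower. The invariant chain gene Cd74 read 5.65 and 5.24 in knockdown, against 4.87 and 5.03 in control (difference 0.50, SE 0.14, unadjusted p = 0.00916, adjusted p = 0.574, limma). The second was H2-DMa, a class II chaperone subunit gene named after its values were seen, at 4.67 and 4.80 in knockdown, against 4.44 and 4.42 in control (difference 0.30, SE 0.09, adjusted p = 0.589 in limma). The 2 brightest genes of that list, Ifi30 and H2-DMb1, differed by -0.08 and 0.01.

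The peptidases of other classes lay slightly higher in knockdown. Cathepsin D is the main aspartic peptidase of the lysosome. Ctsd read 8.52 and 8.46 in the knockdown arrays, against 8.33 and 8.41 in the control arrays. The groups did not overlap, and the gap between them was smaller than that within the control pair (difference 0.12, SE 0.06, 95% confidence interval -0.03 to 0.27). Cathepsin A is a serine carboxypeptidase that also protects the lysosomal enzymes beta-galactosidase and neuraminidase 1. Ctsa read 9.11 and 9.08 in knockdown, against 9.01 and 9.04 in control, a difference of 0.07 (95% confidence interval -0.05 to 0.19). Its dim second probe set had the opposite sign, with 4.44 and 4.47 in knockdown, against 4.57 and 4.57 in control. That probe set gave the only member signal with both knockdown arrays below both controls.

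The inhibitor gene lay slightly higher in knockdown too, by about the median of the 10 genes. Cst3 read 10.29 and 10.36 in the knockdown arrays, against 10.25 and 10.25 in the control arrays. The controls were nearly identical, and both knockdown arrays lay above them, with knockdown 2 the higher. Knockdown minus control was 0.07 (SE 0.04, 95% confidence interval -0.02 to 0.17), or 1.05-fold, which did not pass (unadjusted p = 0.113, adjusted p = 0.728, limma). The interval of Ctsh (0.35 to 0.73) lies above that of its inhibitor, although this comparison of 2 probe sets was not itself tested.

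**Figure D2:**
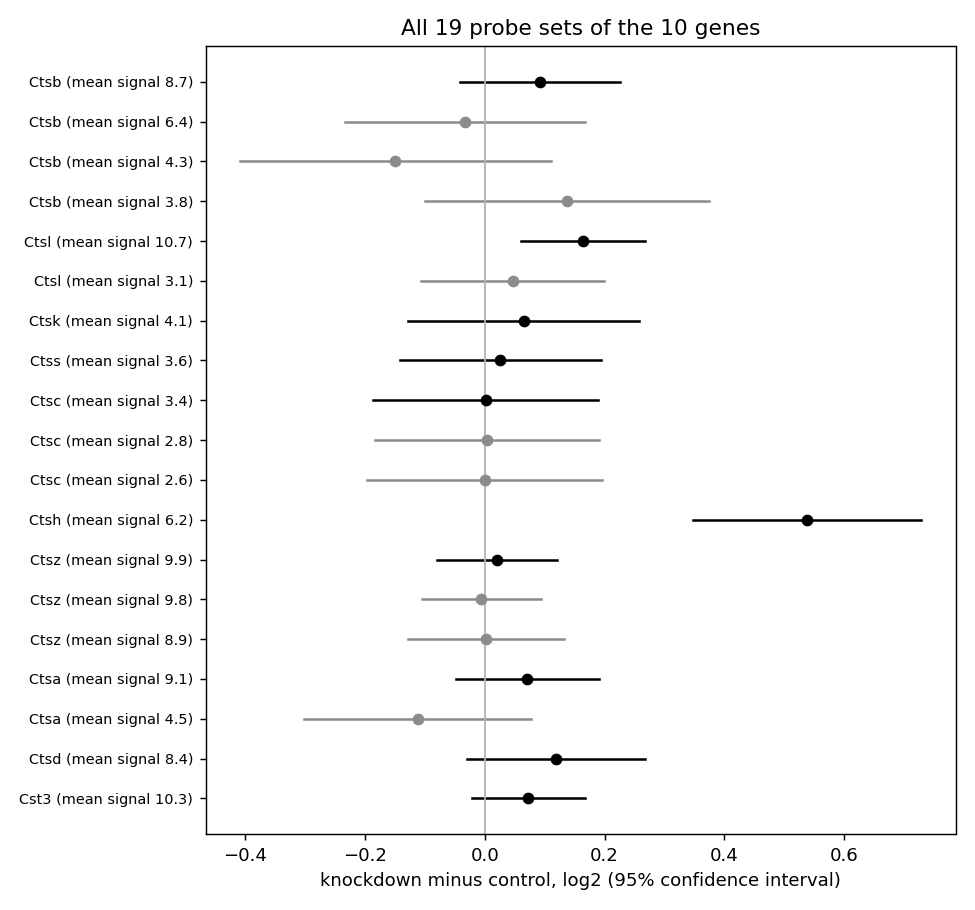
Each of the 19 probe sets is a point at its knockdown minus control difference on the log2 scale, with the 95% confidence interval of the moderated fit. Black marks the brightest probe set of each gene and grey marks its others, with the mean signal in brackets. Only the intervals of Ctsh (0.35 to 0.73) and the bright Ctsl probe set (0.06 to 0.27) exclude 0.

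Which array is left out decided whether members passed. Without knockdown 1, limma passed Ctsh (difference 0.55, adjusted p = 2e-05), Ctsl (0.11, adjusted p = 0.00471) and Cst3 (0.11, adjusted p = 0.0134), and 3.71% of all probe sets passed with them. Without knockdown 2, it passed Ctsh (0.53, adjusted p = 7.34e-06), Ctsl (0.22, adjusted p = 1.22e-09) and Ctsd (0.15, adjusted p = 0.0456), along with 12.8% of all probe sets. In both fits the spread comes from the controls alone and is assumed for the single knockdown array. Ctsh and Ctsl thus passed with either knockdown array, Cst3 only with knockdown 2 and Ctsd only with knockdown 1. Without control 1 or without control 2, 0 members passed in limma, and 1 had an unadjusted p under 0.05 in each. Ctsl, Ctsd, Ctsb and Ctsa lay further from control in knockdown 1, the array that stood apart from the others over all genes. The number of genes with every knockdown array above every control was 8 without knockdown 1, where 41.7% of all genes were, and 9 without knockdown 2, where 38.4% were.

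**Figure D3:**
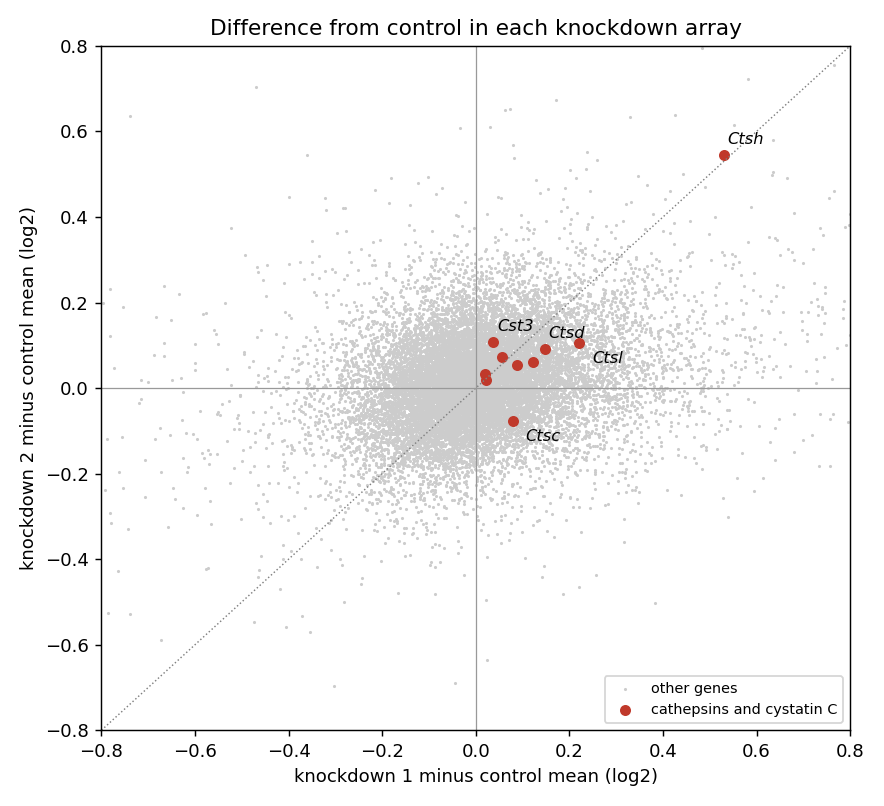
Each point is a gene, at its log2 difference from the control mean in knockdown 1 (horizontal) and in knockdown 2 (vertical), with members in red and 16958 other genes in grey. A further 129 genes lie outside the axes, which end at 0.8. Ctsh lies on the diagonal at 0.53 and 0.55, Ctsl, Ctsd, Ctsb and Ctsa lie to the right of it, and Cst3 lies to the left.

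The genes whose pattern over the 4 arrays was nearest to that of Ctsh were Il33, Cenpj and Cthrc1. Likeness was the Euclidean distance between log2 profiles centred on their means, over 8542 genes that reached the median signal, and was 0.077, 0.084 and 0.114 for these genes. Il33, the gene of the cytokine interleukin 33, read 5.49 and 5.55 in knockdown, against 4.93 and 4.94 in control. Cenpj, which encodes a centriole protein, read 6.73 and 6.78 in knockdown, against 6.28 and 6.29 in control. The secreted matrix protein gene Cthrc1 read 7.15 and 7.10 in knockdown, against 6.49 and 6.54 in control. All 3 share with Ctsh a step of about the same size in both knockdown arrays, which follows from choosing them by this distance. None of the 3 passed the test over all probe sets. Nearest to Cst3 were Ndufa11 (0.0068), Zfp652 (0.0078) and Virma (0.01), with differences of 0.07, 0.08 and 0.08. Such small differences are shared by many genes, and the 2 probe sets of Zfp652 and those of Virma disagreed in sign.

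Start-site windows are shown for the genes whose promoter holds the sequence CACGTG and for the inhibitor gene, since factors that govern lysosomal genes bind that sequence. RefSeq windows of 300 bases, 250 before and 50 after the annotated start on GRCm38.p6, were found for 8 of the 10 genes, and Ctsb and Ctsh are those with none. Capitals mark the E-box CACGTG or the GC box GGGCGG on either strand, and all are printed 5′ to 3′ on the strand of the gene.
Ctsl, chr13:64370471-64370770, minus strand: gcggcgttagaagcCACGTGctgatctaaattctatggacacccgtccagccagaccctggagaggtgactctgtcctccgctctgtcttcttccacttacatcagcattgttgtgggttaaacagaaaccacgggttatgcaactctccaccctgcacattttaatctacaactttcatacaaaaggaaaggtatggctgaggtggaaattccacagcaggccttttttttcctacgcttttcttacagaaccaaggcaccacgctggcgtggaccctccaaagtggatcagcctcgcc
Ctsd, chr7:142387778-142388077, minus strand: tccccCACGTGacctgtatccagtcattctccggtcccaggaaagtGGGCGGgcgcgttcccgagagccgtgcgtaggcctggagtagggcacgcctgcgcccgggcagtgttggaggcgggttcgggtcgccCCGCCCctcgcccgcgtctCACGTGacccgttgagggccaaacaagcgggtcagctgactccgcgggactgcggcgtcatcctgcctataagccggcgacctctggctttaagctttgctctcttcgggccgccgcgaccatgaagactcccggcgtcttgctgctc
Ctsa, chr2:164833523-164833822, plus strand: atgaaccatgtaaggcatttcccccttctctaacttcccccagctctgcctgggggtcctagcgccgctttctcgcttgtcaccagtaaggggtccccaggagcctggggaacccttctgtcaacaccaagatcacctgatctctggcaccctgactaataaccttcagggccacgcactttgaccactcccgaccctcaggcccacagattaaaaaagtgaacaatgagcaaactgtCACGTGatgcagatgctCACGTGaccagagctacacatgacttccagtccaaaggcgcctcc
Cst3, chr2:148875463-148875762, minus strand: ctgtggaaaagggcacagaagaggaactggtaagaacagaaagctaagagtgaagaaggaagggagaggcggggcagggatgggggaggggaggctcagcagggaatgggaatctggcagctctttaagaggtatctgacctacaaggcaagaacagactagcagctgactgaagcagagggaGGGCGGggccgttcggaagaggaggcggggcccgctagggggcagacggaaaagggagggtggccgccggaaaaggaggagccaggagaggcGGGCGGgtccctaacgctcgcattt

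The E-box was present in 3 of the 9 windows of the 8 genes, those of Ctsl, Ctsd and Ctsa, compared with 7.15% of 32851 windows of that length. Its first base lies at -236 from the start site in Ctsl, at -245 and -98 in Ctsd, and at -12 and 6 in Ctsa. A further window of Ctsa, at another annotated start, holds none. GGGCGG was found in 5 of the 9 windows, those of Cst3, Ctsc, Ctsd, Ctss and Ctsz, and in 35.7% of all windows. The 3 genes with the E-box had differences of 0.16 (Ctsl), 0.12 (Ctsd) and 0.0707 (Ctsa). The 5 genes whose windows lack it had 0.0726 (Cst3), 0.06 (Ctsk), 0.03 (Ctss), 0.02 (Ctsz) and 0.0013 (Ctsc), so that Cst3 lay above Ctsa. None of these 8 differences passed the test, and whether the 2 sets of genes differ was not tested. Ctsh, the member with the largest difference, and Ctsb have no window and are in neither set. The matches describe letters in a window and no binding was measured.

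Other lysosomal genes were compared through lists that were chosen with earlier results of the arrays known. In each of the lists below, 0 genes passed over all probe sets in limma. Of 36 lysosomal hydrolase genes, which encode the enzymes for sugars, lipids and sulfates that share the compartment with cathepsins, 27 had a higher mean (75%, against 52.7% of all genes). Of the 36, 16 lay above both controls (44.4%) and 1 below both (2.78%), where 21.2% and 17.1% of all genes did, and 23.9% of those at or above the median signal lay above. Unadjusted p was under 0.05 in limma for 6, of which 5 were higher and 1 lower, where 4.4% of all genes were higher and 2.56% lower. Over the list the median was 0.07 (0.09 from knockdown 1 alone, 0.03 from knockdown 2 alone), beside 0.01 over all genes. The acid phosphatase gene Acp2 read 5.93 and 5.83 in knockdown, against 5.54 and 5.59 in control (difference 0.32, SE 0.09). Sgsh, the sulfamidase of heparan sulfate breakdown, read 4.79 and 5.13 in knockdown, against 5.27 and 5.27 in control, but its 2 probe sets disagreed in sign. The brightest, the serine carboxypeptidase gene Scpep1, whose 2 probe sets disagreed in sign, and the hexosaminidase gene Hexa, differed by -0.0003 and 0.05.

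The proton pump that acidifies the lysosome showed a median difference of 0.09 over 19 subunit and accessory genes (0.09 from knockdown 1 alone, 0.06 from knockdown 2 alone). Of these 17 had a higher mean (89.5%, against 52.7% of all genes). Both controls were exceeded by 8 (42.1%, against 21.2% of all genes) and undercut by 1 (5.26%, against 17.1%). At an unadjusted p under 0.05 in limma 0 were lower (2.56% of all genes) and 1 was higher (4.4%). It was the catalytic subunit gene Atp6v1a, at 9.08 and 9.12 in knockdown, against 8.97 and 8.95 in control (difference 0.14, SE 0.05), although its 2 probe sets disagreed in sign. Tcirg1, a membrane subunit gene, differed by 0.14, Atp6v0e by 0.07 and Atp6ap2 by 0.05. Hydrolase and proton pump genes thus had medians as far from 0 as the cathepsins, without any gene that passed.

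Among lysosomal membrane genes a smaller share than of all genes lay above both controls, and the other shares were near those of all genes. Of 26, 15 had a higher mean (57.7%, against 52.7%), 3 lay above both controls (11.5%, against 21.2%) and 5 below both (19.2%, against 17.1%). Their median was 0.03 (0.0061 from knockdown 1 alone, -0.0174 from knockdown 2 alone). At an unadjusted p under 0.05 in limma 1 was higher and 0 lower, beside 4.4% and 2.56% of all genes. Lamp1, a main glycoprotein of the lysosomal membrane, read 11.35 and 11.33 in knockdown, against 11.22 and 11.27 in control (difference 0.09, SE 0.03, unadjusted p = 0.0193, adjusted p = 0.637, limma). Laptm4a differed by 0.09, the channel gene Mcoln1 by 0.18 (1 of its 3 probe sets was opposite), and Sidt2 by -0.12. Of 21 genes of lysosomal sorting and regulation, 15 had a higher mean (71.4%, against 52.7% of all genes), 6 lay above both controls (28.6%, against 21.2%) and 4 below both (19%, against 17.1%). Their median was 0.05 (-0.0055 from knockdown 1 alone, 0.0823 from knockdown 2 alone). At an unadjusted p under 0.05 in limma 1 was higher and 1 lower, beside 4.4% and 2.56% of all genes. The sorting receptor gene Sorl1 read 6.55 and 5.93 in knockdown, against 5.65 and 5.65 in control, and most of its difference of 0.59 lay in knockdown 1. The adaptor gene Ap1s2 read 7.33 and 7.52 in knockdown, against 7.75 and 7.84 in control (difference -0.37, SE 0.09). The retromer genes Vps35 (0.07, with its 2 probe sets opposite) and Vps29 (0.02) were near 0.

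The other cathepsins and their relatives had shares near those of all genes. Of 17, 8 had a higher mean (47.1%, against 52.7% of all genes). Above both controls lay 3 (17.6%, against 21.2%) and below both 3 (17.6%, against 17.1%). Their median was -0.0015, and 3 reached the median signal. At an unadjusted p under 0.05 in limma 1 was higher and 0 lower, beside 4.4% and 2.56% of all genes. Tinagl1, a secreted cathepsin-related protein without peptidase activity, read 5.69 and 5.57 in knockdown, against 5.33 and 5.26 in control (difference 0.34, SE 0.09, adjusted p = 0.569 in limma). Legumain (Lgmn), an asparaginyl endopeptidase that processes cathepsins, differed by 0.11, and Ctsf by -0.06, where 1 of 2 probe sets was opposite. Of 20 other protease inhibitor genes measured, 14 had a higher mean (70%, against 52.7% of all genes), with a median of 0.05. Above both controls lay 6 (30%, against 21.2%) and below both 1 (5%, against 17.1%). At an unadjusted p under 0.05 in limma 1 was higher and 0 lower, beside 4.4% and 2.56% of all genes. The cytosolic cystatin gene Cstb read 10.66 and 10.52 in knockdown, against 10.50 and 10.52 in control. Serpinb1a, whose product inhibits serine proteases of neutrophil granules, read 6.99 and 6.22 in knockdown, against 6.15 and 6.14 in control, a step seen mainly in knockdown 1. Serpinb6a differed by 0.05.

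**Figure D4:**
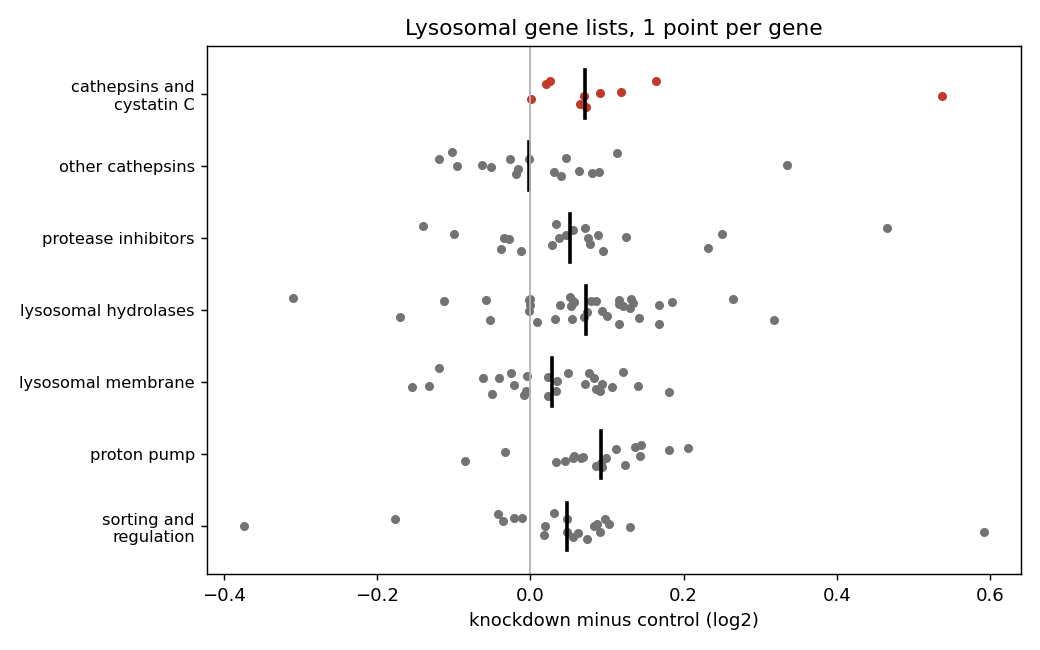
Each point is a gene at its knockdown minus control difference on the log2 scale, and the bar is the median of its list. Medians are 0.07 for the cathepsins and cystatin C, -0.0015 for other cathepsins, 0.05 for protease inhibitors, 0.07 for hydrolases, 0.03 for membrane genes, 0.09 for the proton pump and 0.05 for sorting and regulation.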

How the data were processed

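Biotin-labelled RNA of ATDC5 cells was hybridized to 4 Affymetrix mouse arrays, grouped by their titles. The deposited table holds a log2 signal for each probe set. RMA made these log2 values for the authors, per the submitters' processing notes, with software and version not given in the sources used here. RMA subtracts background, equalizes the arrays' distributions and compresses changes of dim probe sets. That the logarithm has base 2 follows from how far the signals extend. Of 45141 probe sets, 104 array controls were left out. The platform annotation, which can be old, gave 28898 of the rest 1 symbol, 551 several and 15588 none. All 19 member probe sets matched a RefSeq gene ID.

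Knockdown was compared with control with lmFit and eBayes of limma 3.58.1 (R 4.3.3), using a mean-variance trend (2 residual and 5.32 prior degrees of freedom) and two-sided p-values with Benjamini-Hochberg adjustment over all 45037 probe sets at 0.05. A gene was read from its probe set with the highest mean signal. SEs and 95% intervals are those of this fit, and the number of arrays limits their precision. On 20 simulated sets with 200 of 45037 probe sets changed and equal spread in both groups, the fit recovered 25.3% of 1.41-fold, 95.4% of 2-fold and 99.7% of 4-fold changes.

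The members and lists were chosen with earlier results of these data known. Named genes were all members, Chadl, and from each of 10 lists up to 4 that passed or else the 2 brightest and the 2 largest differences without overlap at or above the median signal. The 3 genes nearest in pattern to Cst3 and to the member with the widest range were added. H2-DMa, Acp5, Ptprc, Sox9, Comp, Matn1 and Prg4 were named after their values were seen. Alternatives were quantile normalization, centring, leaving out probe sets below the 40th percentile, 1 probe set per gene, the mean of a gene's probe sets, eBayes without trend, robust eBayes, a replicate block and leaving out each array. Deviations of knockdown 1 and control 1 from their group means correlated at -0.0041 over 17097 genes, so the replicate numbers were not taken to pair the samples.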

Additional observations from a re-analysis of the deposited data

How the results depend on the processing

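With quantile normalization, centred arrays, dim probe sets left out, 1 probe set per gene, the mean of probe sets, eBayes without the trend, robust eBayes and the replicate block, 0 member genes passed, with 1 or 2 at an unadjusted p under 0.05 in limma, and of 78 differences of single members 77 kept their sign. The exception was Ctsa, at -0.0208 with the mean of its probe sets, a setting in which Ctsb fell to 0.0117. Ctsl had an unadjusted p of 0.0686 without the trend and of 0.141 with the mean of its probe sets (limma). Ctsh stayed between 0.53 and 0.54, with adjusted p between 0.266 and 0.496. Leaving out each array gave 0 to 3 member genes, and differences of 0.51 to 0.57 for Ctsh, of -0.0772 to 0.0798 for Ctsc and of -0.00792 to 0.0495 for Ctsz, the last 2 with both signs. Other members kept their sign there, with 0.08 to 0.16 for Ctsd, 0.01 to 0.12 for Ctsk, 0.11 to 0.22 for Ctsl and 0.04 to 0.11 for Cst3. The median over members was 0.082 with dim probe sets left out, which kept 8 members, 0.0451 with the mean of probe sets and between 0.0672 and 0.0834 with an array left out. The count of genes above both controls, examined after seeing the data, was 6 with the mean of probe sets and between 7 and 9 otherwise. Chadl ranged from -0.58 to -0.23 with an array left out and passed without knockdown 2. Probe sets passing over the whole array, 1 in the reported fit, were 0 with 1 probe set per gene, 0 without the trend, 3 with robust eBayes, 2 with the replicate block and 0 to 5749 with an array left out. The replicate block changed no member's call. Dim probe sets of Ctsc, Ctsk and Ctss limit what these arrays can show of those genes.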
